A study of Mus musculus with 34 samples.

Results

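Fos and FosL2 (also called Fra2) are monomers of the transcription factor AP-1, and their binding sites were compared in macrophages 1 h after activation. Peaks of the Fos list and of the FosL2 list that overlapped by 1 bp or more were joined into 1 locus. The 24365 Fos peaks and 10619 FosL2 peaks formed 25799 loci. Of these, 15182 had a Fos peak and no FosL2 peak (Fos-only), 1450 had a FosL2 peak and no Fos peak (FosL2-only), and 9167 had both (shared).

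The cells were thioglycollate elicited macrophages (TGEMs), cells recruited to the peritoneal cavity of adult male mice by the irritant thioglycollate. They were treated for 1 h with the lipopolysaccharide component Kdo2 lipid A (KLA), which acts through the receptor TLR4, or with vehicle (Veh, PBS). Both main lists come from KLA-treated TGEMs of the strain labelled C57Bl6 (genotype C57Bl/6EiJ in the labels), with no engineered allele. The lists set beside them are the C57Bl6 KLA lists of Jun, JunB, JunD, ATF3, PU.1 and CEBPa, the C57Bl6 Veh lists of the AP-1 monomers, and the BALB/cJ KLA lists of Fos, Jun, JunB, JunD and ATF3. FosL2 in BALB/cJ was not analysed here. The series has 34 samples and 30 peak lists, of which 19 were used.

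ChIP-seq recovers the DNA bound by a protein with an antibody and sequences it, so that reads pile up into peaks. Each condition has 1 deposited list, made from replicate experiments, so no difference below could be tested against the spread between replicates and no p-value is given. Intervals in parentheses are 95% Wilson intervals for shares and 95% Newcombe intervals for differences between shares, in percentage points (pp). They cover counting error over loci only, and loci are not replicates. A share was called different where the interval of the difference left out 0. The deposited count of a peak is not scaled to library size, so counts rank peaks within a list and are not compared between lists. Fos counts ran from 23 to 312 with a median of 51, and FosL2 counts from 23 to 511 with a median of 48. A peak missing from a list is a peak that did not pass the authors' filters, which is not the same as an absence of binding.

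AP-1 proteins bind DNA as dimers through a basic leucine zipper. Fos family members do not form stable dimers with themselves and pair with Jun, JunB or JunD. In macrophages, Fos is made within minutes of TLR4 activation, and AP-1 dimers share enhancers with PU.1 and with CEBP proteins, which help to define the macrophage lineage. Their usual site is the TRE, written TGACTCA, whose other strand reads TGAGTCA. The CRE, TGACGTCA, has 1 more base between the same arms.

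The sequences below are examples from the top of each class. They are the central 200 bp of loci on the plus strand of GRCm38 (mm10), with coordinates as deposited and the TRE in capitals. The first pair are the shared loci with the lowest sum of ranks in the lists, near Pfkfb3 (chr2:11429716-11429915) and Cdc42bpg (chr19:6297719-6297918). The next 3 are the Fos-only loci with the highest Fos counts, near Sdc1 (chr12:8827098-8827297), Alcam (chr16:52470302-52470501) and Capn13 (chr17:73263156-73263355). The last is the FosL2-only locus with the highest FosL2 count, at chr17:39845431-39845630. It belongs to a place with a ribosomal RNA pseudogene, described below, and does not stand for its class.

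shared, near Pfkfb3: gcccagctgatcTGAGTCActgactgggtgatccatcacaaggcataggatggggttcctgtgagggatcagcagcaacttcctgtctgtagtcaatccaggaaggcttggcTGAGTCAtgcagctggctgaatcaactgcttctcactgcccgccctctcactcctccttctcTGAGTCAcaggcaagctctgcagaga
shared, upstream of Cdc42bpg: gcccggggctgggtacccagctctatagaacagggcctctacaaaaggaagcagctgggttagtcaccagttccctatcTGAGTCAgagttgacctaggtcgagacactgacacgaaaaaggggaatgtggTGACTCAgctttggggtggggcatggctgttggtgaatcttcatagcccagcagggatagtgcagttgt
Fos-only, near Sdc1: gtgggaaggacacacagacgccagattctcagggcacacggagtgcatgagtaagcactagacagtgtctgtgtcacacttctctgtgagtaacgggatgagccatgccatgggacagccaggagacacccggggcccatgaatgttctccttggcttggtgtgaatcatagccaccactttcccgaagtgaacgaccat
Fos-only, near Alcam: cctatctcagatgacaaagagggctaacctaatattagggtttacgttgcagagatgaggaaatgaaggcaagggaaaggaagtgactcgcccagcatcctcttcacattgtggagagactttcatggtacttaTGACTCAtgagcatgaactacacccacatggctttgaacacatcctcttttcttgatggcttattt
Fos-only, near Capn13: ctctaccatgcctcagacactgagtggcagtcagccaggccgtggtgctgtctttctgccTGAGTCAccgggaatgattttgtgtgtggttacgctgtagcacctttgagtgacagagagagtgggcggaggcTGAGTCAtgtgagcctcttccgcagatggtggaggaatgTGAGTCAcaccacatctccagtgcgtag
FosL2-only, chromosome 17: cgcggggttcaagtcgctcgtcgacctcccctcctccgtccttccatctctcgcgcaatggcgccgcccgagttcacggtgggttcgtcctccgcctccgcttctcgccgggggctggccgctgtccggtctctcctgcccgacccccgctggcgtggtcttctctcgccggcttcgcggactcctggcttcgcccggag

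The shared loci of Pfkfb3 and Cdc42bpg hold 3 and 2 TREs. The Fos-only locus of Capn13 also holds 3, that of Alcam holds 1, and that of Sdc1 holds 0 exact copies. The FosL2-only locus holds 0.

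A second set of sequences shows where many of the stronger FosL2-only peaks lay, which was at tRNA genes. It was chosen after the values were seen. Capitals here mark only the bases of the named tRNA gene as RefSeq places it, again on the plus strand. The genes n-TSgct3 (serine tRNA, chr11:69063042-69063123, window chr11:69062943-69063142) and n-TKctt30 (lysine tRNA, chr19:12009696-12009768, window chr19:12009572-12009771) lie on the minus strand, so their printed bases are the complement of the gene. The gene n-TNgtt7 (asparagine tRNA, chr10:80249159-80249232, window chr10:80249003-80249202) lies on the plus strand, and 44 of its bases fall in the window.

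FosL2-only, n-TSgct3: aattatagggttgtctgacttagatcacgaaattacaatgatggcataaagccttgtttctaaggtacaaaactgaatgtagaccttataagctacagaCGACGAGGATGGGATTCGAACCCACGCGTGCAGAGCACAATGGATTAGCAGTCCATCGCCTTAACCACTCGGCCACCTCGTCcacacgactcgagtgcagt
FosL2-only, n-TKctt30: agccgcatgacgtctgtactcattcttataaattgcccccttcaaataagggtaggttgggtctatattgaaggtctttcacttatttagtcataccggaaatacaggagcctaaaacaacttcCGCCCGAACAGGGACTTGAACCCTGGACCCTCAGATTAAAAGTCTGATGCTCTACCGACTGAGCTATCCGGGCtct
FosL2-only, n-TNgtt7: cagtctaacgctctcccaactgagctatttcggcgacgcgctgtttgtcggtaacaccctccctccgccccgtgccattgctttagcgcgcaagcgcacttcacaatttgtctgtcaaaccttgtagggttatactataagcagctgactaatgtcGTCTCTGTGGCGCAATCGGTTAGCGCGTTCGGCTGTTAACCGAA

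Most FosL2 loci also had a Fos peak, and most Fos loci had no FosL2 peak. Of the FosL2 loci, 86.3% (85.7 to 87) were shared, compared with 37.6% (37 to 38.3) of the Fos loci. The Fos list was the longer of the lists, so the same comparison was made with the 10619 strongest peaks of each. This kept Fos peaks with counts of 56 or more, and 302 Fos peaks tied at that count. Then 6432 loci were shared, 4180 were Fos-only and 4185 were FosL2-only, and 60.6% of the loci of each list were shared. Of the 4185 FosL2-only loci at equal lengths, 2735 (65.4%) had a Fos peak below the threshold in the full list. FosL2-only loci of the full lists are therefore the smaller set without a listed Fos peak of any count.

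Sharing rose with the strength of a peak in both lists. In the strongest decile of the Fos list, 85.6% (84.1 to 86.9) of loci had a FosL2 peak, and this share fell through every decile to 8.62% (7.57 to 9.8) in the weakest. In the FosL2 list, 97.3% (96.1 to 98.1) of the strongest decile had a Fos peak, 93.7% (92.1 to 95) of the sixth decile did, and 51.8% (48.8 to 54.8) of the weakest did. The strongest decile still held 351 Fos-only loci of 2436 and 29 FosL2-only loci of 1062. Median Fos counts were 42 at Fos-only and 75 at shared loci. Median FosL2 counts were 31 at FosL2-only and 51 at shared loci, and 84.3% of the FosL2-only loci lay in the weaker 50% of the list.

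**Figure D1:**
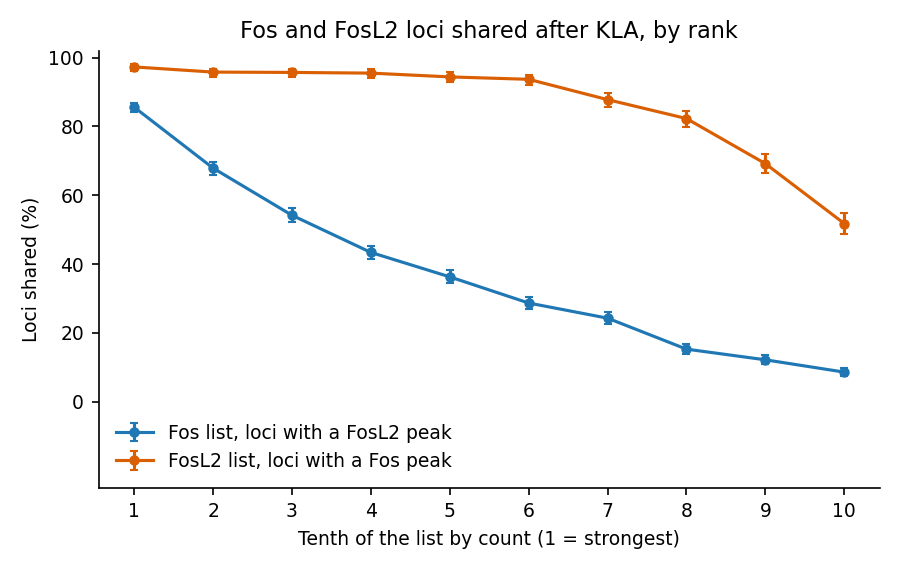
Share of loci (%, y axis) with a peak of the other monomer, by decile of the count in each list (x axis, 1 is the strongest), with 95% Wilson intervals as bars. The FosL2 list is still at 93.7% in the sixth decile and ends at 51.8%, whereas the Fos list falls from 85.6% to 8.62%.

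At the 9167 shared loci, the Fos and FosL2 counts ranked alike. Spearman's rho across these loci was 0.852 (Fisher interval 0.846 to 0.858), and Pearson's r of the log2 counts was 0.853. These are descriptions across loci of 1 list each, and the loci share the openness of their chromatin and the depth of their list. At equal list lengths rho was 0.798 over 6432 loci. It was 0.871 over the 4499 shared loci with a TRE and 0.812 over the 4668 without, and it was 0.786 over the 823 at promoters and 0.856 over the 8344 elsewhere. Of the shared loci, 88.7% differed by at most 25 percentile points between their ranks in the lists.

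**Figure D2:**
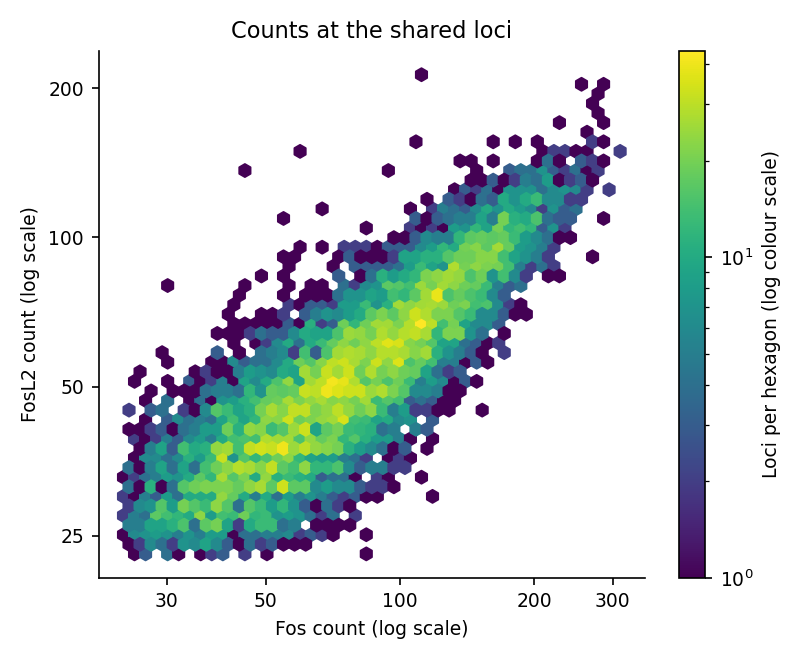
Fos count (x axis) and FosL2 count (y axis) at the 9167 shared loci, both as deposited on log scales, with the number of loci per hexagon in colour (log scale). The points form 1 band from the lower left to the upper right, with a rho of 0.852.

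At 5323 shared loci the ranks of several lists can be set side by side. These loci also had peaks in the C57Bl6 lists of Jun, JunB, JunD and ATF3. They had peaks in the BALB/cJ lists of Fos, JunB and JunD as well. There, rho between Fos and FosL2 was 0.834. Between Fos in C57Bl6 and Fos in BALB/cJ, the same monomer in another strain, it was 0.837. The intervals of these values overlapped (0.825 to 0.842 and 0.828 to 0.845). The monomers differed most in their rank agreement with JunB, with a rho of 0.819 for Fos and 0.742 for FosL2. With JunD the values were 0.788 and 0.786, with Jun 0.691 and 0.685, and with ATF3 0.668 and 0.685.

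The shared loci whose rank leaned to one monomer differed in the same partner. They were split into quintiles by the difference between the FosL2 and Fos ranks. JunB peaks lay at 78.8% (76.9 to 80.7) of the most Fos-leaning quintile and 60.8% (58.5 to 63) of the most FosL2-leaning quintile, a difference of -18.1 pp (-21 to -15.1). Jun differed by -3.94 pp (-6.47 to -1.4), and the interval for JunD ran from -0.784 to 0.893 pp. The FosL2-leaning quintile had more PU.1 peaks, at 72.7% against 66.7% (5.98 pp, 3.01 to 8.94), more loci at promoters, at 12.4% against 8.07% (4.37 pp, 2.41 to 6.34), and more loci with an AP-1 peak already in Veh, at 81.3% against 72.5% (8.82 pp, 6.1 to 11.5). The interval for CEBPa included 0 (-2.81 to 3.63 pp). The quintiles also differed in strength, with median Fos counts of 82 and 58 and median FosL2 counts of 42 and 55.

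Peaks of the Jun family, the dimer partners of Fos proteins, were most frequent at shared loci and least frequent at FosL2-only loci. JunD, which is made in resting and activated cells, had a peak at 97.7% (97.3 to 97.9) of shared, 80.2% (79.5 to 80.8) of Fos-only and 61.9% (59.3 to 64.3) of FosL2-only loci. Jun had a peak at 81.4% (80.6 to 82.2), 45.3% (44.5 to 46.1) and 26.8% (24.5 to 29.1). JunB had a peak at 72.2% (71.2 to 73.1), 36.4% (35.7 to 37.2) and 11.5% (9.97 to 13.3). The intervals of the differences from the Fos-only loci left out 0 for all of these partners. Between FosL2-only and Fos-only loci, JunB differed most of these partners, at -24.9 pp (-26.7 to -23). Between shared and Fos-only loci, Jun and JunB were alike, at 36.1 and 35.7 pp. The JunD, Jun and JunB lists held 31640, 17480 and 13375 peaks. The order of the partners therefore cannot be told apart from list length. In BALB/cJ the JunB list was longer than the Jun list, with 21667 and 11317 peaks. There JunB lay at 84%, 55% and 34.6% of shared, Fos-only and FosL2-only loci, and Jun at 54.3%, 26.7% and 15.5%.

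The combinations of partners showed the same order. All of Jun, JunB and JunD had peaks at 64.2% of the shared, 24.5% of the Fos-only and 5.17% of the FosL2-only loci. JunD was the only one of them at 33.5% (31.1 to 36) of FosL2-only, 26.6% (25.9 to 27.3) of Fos-only and 9.63% (9.05 to 10.3) of shared loci. None of them had a peak at 33.7% (31.3 to 36.2) of FosL2-only, 16.5% (15.9 to 17.1) of Fos-only and 1.36% (1.15 to 1.62) of shared loci. ATF3, which can also pair with Jun proteins, had a peak at 97.8%, 83.1% and 61.8% of shared, Fos-only and FosL2-only loci. In the FosL2-only class, 311 loci (21.4%) had no C57Bl6 KLA peak of Jun, JunB, JunD or ATF3 and no BALB/cJ Fos peak. The share in the Fos-only class was 4.54%. Peaks in Veh and in the other BALB/cJ lists were not considered in this count, so these loci can still have them.

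Because FosL2-only loci were weak peaks, the comparison was repeated within deciles of rank and at equal list lengths. Within deciles of the full lists the differences between FosL2-only and Fos-only loci shrank to -13.9 pp (-15.7 to -12.1) for JunB, -7.11 pp (-9.51 to -4.71) for Jun and -9.44 pp (-12 to -6.86) for JunD, and were still called. At equal lengths, JunB peaks lay at 85.7% of shared, 68.8% of Fos-only and 30.3% of FosL2-only loci, and JunD peaks at 99.4%, 96.8% and 82.5%. With both equal lengths and deciles, where most FosL2-only loci have a weaker Fos peak, the differences were -33.9 pp (-36 to -31.9) for JunB, -27 pp (-29.1 to -25) for Jun and -14.1 pp (-15.5 to -12.8) for JunD. The gain of shared over Fos-only loci was smaller there, at 8.03 pp (6.32 to 9.74) for JunB, 8.22 pp (6.76 to 9.69) for Jun and 1.91 pp (1.36 to 2.45) for JunD. With the BALB/cJ lists of the partners, the differences were -20.4 pp for JunB, -11.2 pp for Jun and -13.2 pp for JunD.

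PU.1 and CEBPa followed the same order as the Jun partners. PU.1, the regulator of myeloid enhancers, had a KLA peak at 72.1% (71.2 to 73) of shared, 52.7% (51.9 to 53.5) of Fos-only and 45.4% (42.8 to 48) of FosL2-only loci. CEBPa, a myeloid factor of the bZIP class, had a peak at 48.2% (47.1 to 49.2), 28.5% (27.8 to 29.2) and 23.7% (21.6 to 26). Neither had a peak at 17.4%, 37.3% and 45.4%. At equal lengths PU.1 peaks lay at 77.3%, 66.7% and 54.5% and CEBPa peaks at 53.9%, 40.1% and 30.6%. Within deciles of the full lists the difference between FosL2-only and Fos-only loci was -2.67 pp (-5.37 to 0.0232) for PU.1 and -0.365 pp (-2.68 to 1.95) for CEBPa, and neither was then called. With equal lengths and deciles both were called, at -10.3 pp (-12.4 to -8.1) and -7.97 pp (-10.1 to -5.87).

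**Figure D3:**
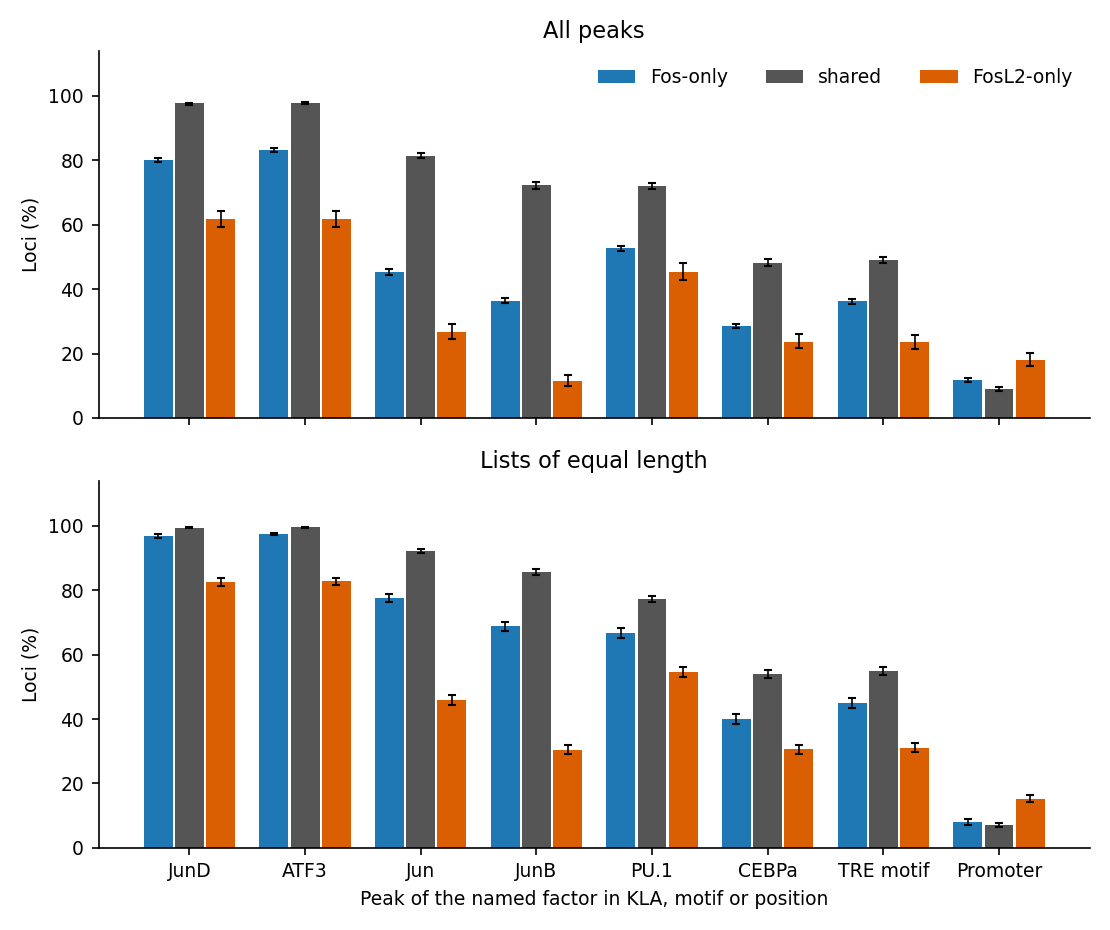
Share of Fos-only, shared and FosL2-only loci (%, y axis) with a KLA peak of each named factor, a TRE in the central 200 bp, or a centre within 1 kb of a transcription start site, for all peaks (upper panel) and for lists of equal length (lower panel), with 95% Wilson intervals as bars. JunB shows the widest spread, from 72.2% of shared to 11.5% of FosL2-only loci, and the promoter share is highest at FosL2-only loci in both panels.

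The TRE was most frequent at shared loci. It was searched on both strands in the central 200 bp and found at 49.1% (48.1 to 50.1) of shared, 36.2% (35.5 to 37) of Fos-only and 23.5% (21.4 to 25.8) of FosL2-only loci. Regions of the same length 1 kb before and after the loci held it in 4% (3.83 to 4.17), and PU.1 KLA peaks without an AP-1 peak in 2.33% (2.12 to 2.56). All classes were therefore above both backgrounds. The difference between shared and Fos-only loci was 12.8 pp (11.6 to 14.1) in the full lists but 2.73 pp (1.28 to 4.18) within deciles and 3.6 pp (1.54 to 5.66) with equal lengths and deciles. Between FosL2-only and Fos-only loci it was -12.7 pp (-15 to -10.3), -10.7 pp (-13 to -8.34) and -12.5 pp (-14.6 to -10.4). More than 1 TRE, as printed above for Capn13 and Pfkfb3, was found at 7.36% of shared, 3.46% of Fos-only and 2.07% of FosL2-only loci. The nearest TRE lay a median of 21 bp from the centre at shared and Fos-only loci and 27 bp at FosL2-only loci.

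The CRE was rare in all classes. It was found at 0.72% (0.566 to 0.915), 0.731% (0.608 to 0.88) and 0.828% (0.474 to 1.44) of shared, Fos-only and FosL2-only loci, and the interval of the difference between the last pair was -0.287 to 0.722 pp. At equal lengths it was at 1.03% of FosL2-only and 0.431% of Fos-only loci, a called difference of 0.597 pp (0.234 to 0.984). The bases beside the TRE differed in their leading form. The most frequent site was GTGACTCAG in shared (13.1% of 5245 sites) and Fos-only loci (11.5% of 6073), and ATGACTCAG in FosL2-only loci (12.3% of 373, interval 9.37 to 16.1). ATGACTCAG made up 10.2% (9.5 to 11) of the Fos-only sites, which lies inside its FosL2-only interval. GTGACTCAG made up 6.43% (4.36 to 9.4) of the FosL2-only sites, below its interval in Fos-only loci (10.7 to 12.3). Of the other letters searched, the PU.1 core ACTTCCT was at 14.5% of FosL2-only and 19.3% of Fos-only loci (-4.8 pp, -6.63 to -2.8). The Runx site TGTGGTT was at 5.03% and 7.59% (-2.55 pp, -3.65 to -1.24). The NFkB form GGGNNTTTCC was at 2.28% and 3.72% (-1.45 pp, -2.17 to -0.497). Of the 9 motifs searched, the ISRE form GAAANNGAAA and the Sp1 box GGGCGGG were the ones called higher at FosL2-only loci in the full lists, at 4.9% against 3.55% (1.35 pp, 0.304 to 2.61) and 7.17% against 5.72% (1.46 pp, 0.179 to 2.94). These 5 differences kept their direction and their call at equal lengths. A match to these letters is not a bound site.

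All classes lay mostly in introns and between genes. A locus was called a promoter where its centre was within 1 kb of a transcription start site (TSS) of a GENCODE protein-coding gene. This held for 18.1% (16.2 to 20.2) of FosL2-only, 11.7% (11.2 to 12.3) of Fos-only and 8.98% (8.41 to 9.58) of shared loci. FosL2-only loci exceeded Fos-only loci by 6.4 pp (4.43 to 8.53), and by 7.23 pp (5.87 to 8.6) at equal lengths. Between shared and Fos-only loci the difference was -2.76 pp (-3.53 to -1.98) in the full lists, but it turned to 0.988 pp (0.071 to 1.9) within deciles. Introns held 45.6% of shared, 45.3% of Fos-only and 37.4% of FosL2-only loci, and 43.5%, 40.6% and 42.2% were intergenic. The median distance to the nearest TSS was 19408, 17823 and 11998 bp.

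Few genes were nearest to FosL2-only loci alone. The 1450 FosL2-only loci were nearest to 1099 genes, and 890 of these (81%) were also nearest to a shared or Fos-only locus. That left 209 genes with FosL2-only loci alone, against 2960 with Fos-only loci alone. These numbers follow the unequal sizes of the classes in part. Of the 7596 genes nearest to any locus, 6224 were nearest to a Fos-only and 4213 to a shared locus. The overlap to be had from these sizes alone was not tested. The median distance from a FosL2-only locus to a Fos peak was 5184 bp, and 17.9% (16 to 19.9) lay within 1 kb of one. From a Fos-only locus to a FosL2 peak the median was 15484 bp, and 7.81% (7.4 to 8.25) lay within 1 kb.

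The leading Fos-only loci were strong peaks of the other monomers as well. The highest Fos count, 247, was near Sdc1, which encodes the cell-surface proteoglycan syndecan-1, and the same locus had counts of 847 for JunD, 320 for ATF3, 128 for JunB and 79 for Jun. The BALB/cJ Fos list had a count of 359 there. No FosL2 KLA peak was listed, but the FosL2 Veh list had a peak with a count of 43. The next, near the adhesion gene Alcam, had a Fos count of 239, a PU.1 count of 289 and a BALB/cJ Fos count of 368. At Capn13 the Fos count was 231 and FosL2 again had a Veh peak, with a count of 48. In an intron of Il1r1, the receptor of interleukin 1, the Fos count was 215, with no FosL2 peak in KLA or Veh.

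Fos-only loci of the strongest Fos decile had partners almost without exception. Of these 351 loci, 99.7% (98.4 to 99.9) had a JunD peak, 96% (93.4 to 97.6) a Jun peak, 92.6% (89.4 to 94.9) a JunB peak and 98.6% (96.7 to 99.4) a BALB/cJ Fos peak. A TRE was found at 59.3% (54 to 64.3), and 43.3% (38.2 to 48.5) had a FosL2 peak in Veh. FosL2 was thus listed at 152 of these loci in resting cells and at 0 of them, by definition, in KLA.

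The leading shared loci had long arrays of partners. Near Pfkfb3, which encodes a glycolytic regulator, the counts were 284 for Fos and 199 for FosL2, with 419 for ATF3, 199 for JunB, 134 for Jun and 178 for PU.1. No JunD peak was listed there, although the BALB/cJ JunD list had a count of 254. The locus at -8638 bp from the start of Cdc42bpg, inside the neighbouring gene Ehd1, had counts of 284 and 174 and a JunD count of 1099, with no JunB peak in C57Bl6 and a count of 220 in BALB/cJ. The highest Fos count of all, 312, was at a locus inside Camk2d, whose nearest TSS is one of Ank2 at 166843 bp, and FosL2 had 153 there. Near Klf6, an immediate-early zinc finger gene, the counts were 265 and 164.

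For the TRE, JunD and BALB/cJ Fos, stronger FosL2-only loci had lower shares than weaker ones, opposite to the other classes. Among the 227 FosL2-only loci in the stronger 50% of the FosL2 list, 9.25% (6.13 to 13.7) had a TRE, 41% (34.8 to 47.5) a JunD peak and 31.7% (26 to 38) a BALB/cJ Fos peak. Among the 1223 weaker ones these shares were 26.2% (23.8 to 28.7), 65.7% (63 to 68.3) and 65.7% (63 to 68.3). For Fos-only loci the stronger 50% of the Fos list was the richer, with a TRE at 43.8% (42.4 to 45.1) against 32.3% (31.4 to 33.3) and a JunD peak at 95.7% (95.1 to 96.2) against 72.1% (71.2 to 73). Shared loci also had more TREs and JunD peaks in the stronger 50% of the FosL2 list, at 58% and 99.6% against 37.9% and 95.2%.

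ATF3 and PU.1 peaks turned in the same way. ATF3 lay at 38.8% (32.7 to 45.2) of the stronger and 66.1% (63.4 to 68.7) of the weaker FosL2-only loci. PU.1 lay at 30.4% (24.8 to 36.7) and 48.2% (45.4 to 51). No Jun, JunB or JunD peak was listed at 54.6% (48.1 to 61) and 29.8% (27.3 to 32.5). The following measures did not turn in this way. An AP-1 peak in Veh lay at 60.4% (53.9 to 66.5) of the stronger and 50% (47.2 to 52.8) of the weaker FosL2-only loci, and a FosL2 Veh peak at 44.1% (37.7 to 50.6) and 7.6% (6.25 to 9.23), which is the direction seen in Fos-only and shared loci. JunB was at 12.3% (8.67 to 17.2) and 11.4% (9.71 to 13.3), and promoters at 15% (10.9 to 20.2) and 18.7% (16.6 to 21), with overlapping intervals.

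In the weaker 50% of each list, FosL2-only loci were still below Fos-only loci for JunB, at 11.4% against 21.9%, BALB/cJ Fos, at 65.7% against 80.1%, and the TRE, at 26.2% against 32.3%. In the weakest decile of each list, a TRE was at 26.8% of FosL2-only and 30.5% of Fos-only loci, a JunD peak at 58.8% and 54.3%, and a BALB/cJ Fos peak at 62.3% and 67.8%. In the strongest decile the corresponding values were 10.3% and 59.3%, 48.3% and 99.7%, and 34.5% and 98.6%. For these measures the classes lay further apart in the strongest than in the weakest decile. The FosL2-only values of the strongest decile rest on 29 loci.

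**Figure D4:**
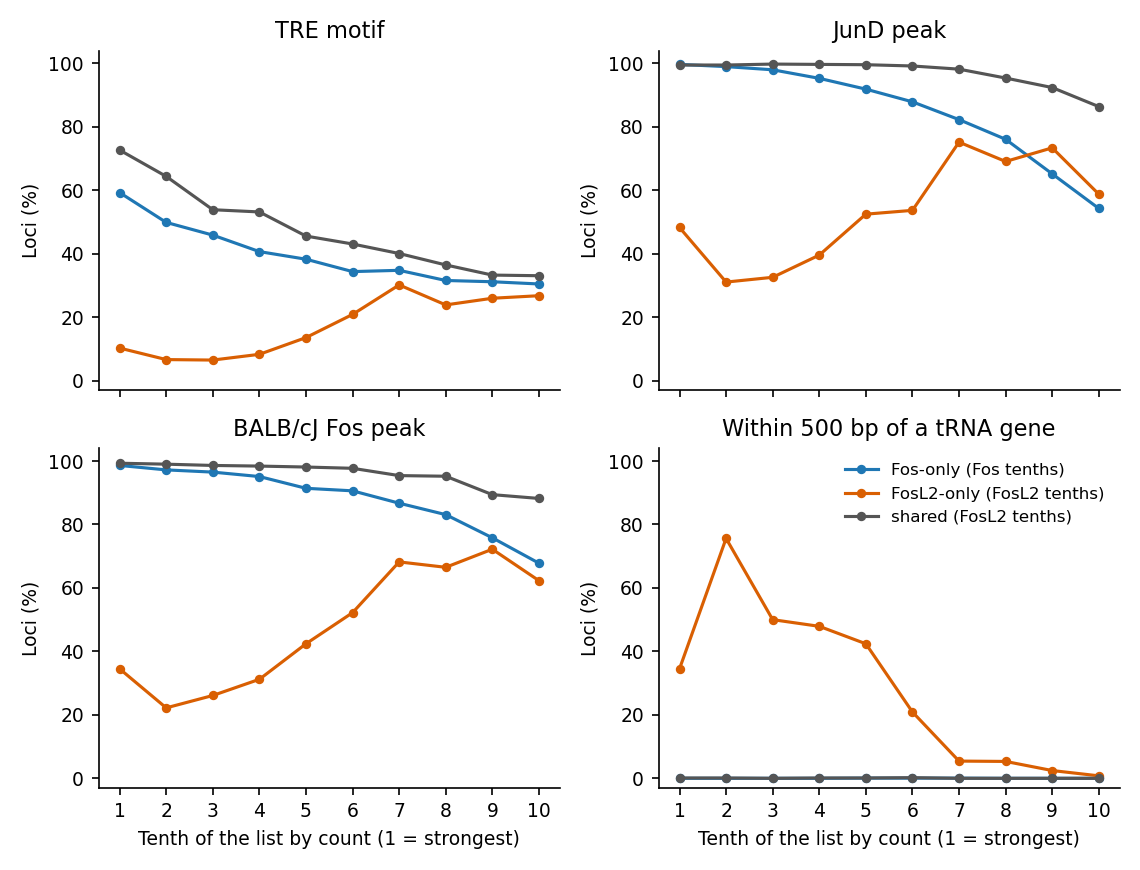
Share of loci (%, y axis) with a TRE, a JunD peak, a BALB/cJ Fos peak or a centre within 500 bp of a tRNA gene, by decile of the count (x axis, 1 is the strongest, Fos deciles for Fos-only and FosL2 deciles for the other classes). FosL2-only loci rise from 10.3% to 26.8% for the TRE from the strongest to the weakest decile, whereas Fos-only loci fall from 59.3% to 30.5%.

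The stronger FosL2-only loci lay to a large extent at tRNA genes, which RNA polymerase III transcribes from promoter elements inside the gene. RefSeq places 403 tRNA genes on the chromosomes. The centre of a FosL2-only locus lay within 500 bp of one at 158 of 1450 loci (10.9%, 9.39 to 12.6), compared with 3 of 15182 Fos-only and 6 of 9167 shared loci. In the stronger 50% of the FosL2 list this was 115 of 227 FosL2-only loci (50.7%, 44.2 to 57.1), and in the weaker 50% it was 43 of 1223 (3.52%, 2.62 to 4.7). Among the Fos-only loci in the stronger 50% of the Fos list it was 1 of 5177. This pattern was found after the values were seen, and its cause was not tested.

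At the 158 loci, the peaks sat on the tRNA genes themselves. A tRNA gene overlapped 155 of them, and 154 had their centre within 200 bp of its start, with a median position 13 bp into the gene. FosL2 counts there ran from 24 to 145 with a median of 57.5, above the median of 48 of the whole list. A TRE was found at 2 of the 158, a Jun peak at 6, a JunB peak at 2, a JunD peak at 25 (15.8%), an ATF3 peak at 20 (12.7%) and a PU.1 peak at 25 (15.8%). A FosL2 peak in Veh lay at 89 (56.3%). Many tRNA genes have near-identical copies, so which copy a read came from is uncertain.

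The printed examples are not typical of the 158 loci, since each had an ATF3 peak, which 20 of the 158 (12.7%) had. The locus at n-TSgct3 had FosL2 counts of 145 in KLA and 50 in Veh, a JunD count of 152 and an ATF3 count of 41, with no Fos peak in C57Bl6 or BALB/cJ. At n-TNgtt7 the FosL2 counts were 107 and 58, with ATF3 at 40, PU.1 at 83 and CEBPa at 97 and no Jun family peak in KLA. At n-TKctt30 they were 105 and 20, with JunD at 239, ATF3 at 59, Jun at 28 and a BALB/cJ Fos count of 43.

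Seen from the tRNA genes, FosL2 stood apart from the other lists. A FosL2 KLA peak lay within 500 bp of 179 of the 403 genes (44.4%) and a FosL2 Veh peak of 116 (28.8%), of which 109 were in both. A Fos peak lay at 9 (2.23%), a BALB/cJ Fos peak at 29 (7.2%), a JunD peak at 45 (11.2%), an ATF3 peak at 42 (10.4%) and a PU.1 peak at 63 (15.6%). As a share of the list, tRNA genes took 1.54% (1.33 to 1.8) of the FosL2 KLA peaks and 1.93% (1.6 to 2.34) of the FosL2 Veh peaks. The Fos KLA list had 0.0369% (0.0194 to 0.0702), and the highest share among the other 17 lists was 0.432% (0.119 to 1.56), from 2 of 463 JunB Veh peaks. Both FosL2 lists used the same antibody, so that a property of FosL2 and a property of that antibody cannot be told apart.

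**Figure D5:**
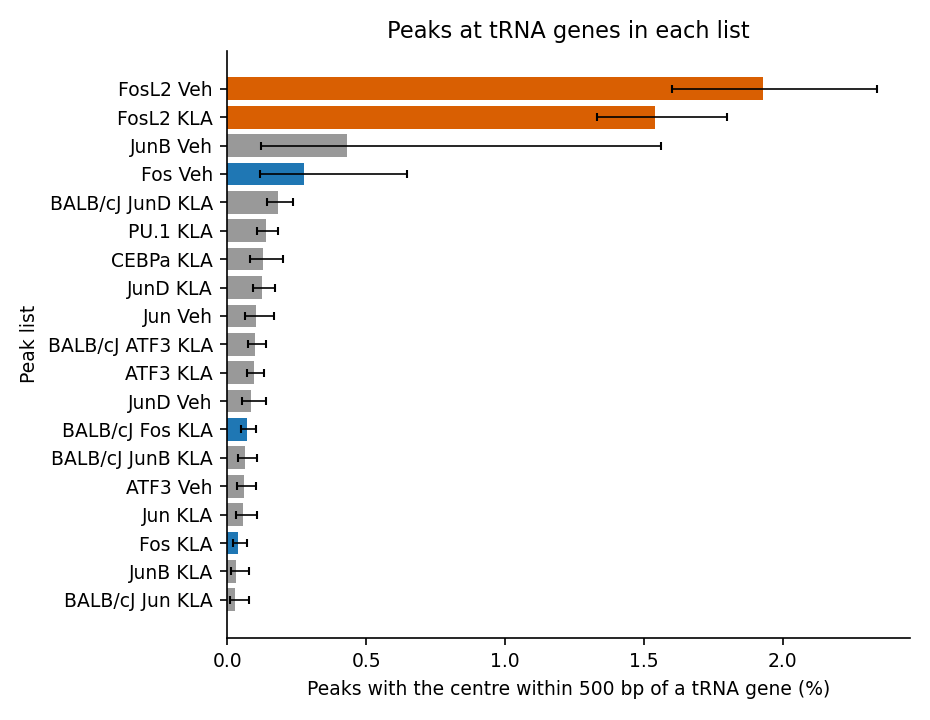
Share of the peaks in each of the 19 lists (%, x axis) with their centre within 500 bp of a tRNA gene, with 95% Wilson intervals as bars. Both FosL2 lists (orange) are the highest, at 1.93% in Veh and 1.54% in KLA, and the Fos lists (blue) lie among the others.

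The differences between the classes did not rest on the tRNA genes alone. Without the loci at tRNA genes, the differences between FosL2-only and Fos-only loci were -10 pp (-12.5 to -7.42) for the TRE, -12.7 pp (-15.3 to -10.1) for JunD and -23.7 pp (-25.6 to -21.6) for JunB, all still called. The difference was 6.07 pp (4.01 to 8.31) for promoters. Among the 112 FosL2-only loci of the stronger 50% that lay elsewhere, 66.1% (56.9 to 74.2) had a JunD peak, 54.5% (45.2 to 63.4) a BALB/cJ Fos peak and 17.9% (11.9 to 26) a TRE. Their JunD share was thus close to the 65.7% of the weaker FosL2-only loci, and the lower JunD share of the stronger loci was not seen away from tRNA genes. Their TRE and BALB/cJ Fos shares were still below those of the weaker loci, at 26.2% (23.8 to 28.7) and 65.7% (63 to 68.3). The intervals of these shares overlapped, but the intervals of the differences, which decide a call here, were not computed.

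The 5 highest FosL2 counts of the class, from 454 to 511, came from 1 place. These loci lay between chr17:39844003 and chr17:39848363 and included the ribosomal RNA pseudogene Rn18s-rs5 (chr17:39846354-39848202) of RefSeq. They lay from -106404 to -102281 bp from the nearest protein-coding TSS, that of Esp38. Of the other 18 lists, 17 had 0 peaks there and the BALB/cJ JunD list had 1. The letters printed for chromosome 17 belong to this place. Ribosomal RNA genes are repeated in the genome, so reads of other copies cannot be told apart from reads of this place.

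Other leading FosL2-only loci were single cases. The intron of Cdk8, a kinase of the Mediator complex, had a FosL2 count of 279 with no peak in the other C57Bl6 lists, and BALB/cJ counts of 111 for JunB and 62 for ATF3. Upstream of Itga5, an integrin gene, the FosL2 count was 168 at chr15:103370583-103370786, beside a JunD count of 1086, an ATF3 count of 471, a PU.1 count of 360 and a JunB count of 202. It held a TRE and a Fos Veh peak with a count of 38. No Fos peak was listed there in KLA in either strain, although the JunD count was close to the highest of its list, 1099.

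FosL2-only loci also sat close together at genes known to be induced through TLR4. At Nfkbia, which encodes the NFkB inhibitor IkBa, 7 FosL2-only loci with counts from 35 to 77 lay from 727 bp to 4527 bp past the start of the gene, through its body and past its end. The promoter, at -94 bp from the start, had a Fos-only locus with a Fos count of 152 and a JunD count of 748. Nfkbia had 0 shared loci. At Tnf, the gene of tumour necrosis factor, 4 FosL2-only loci with counts of 88, 140, 129 and 100 lay from 2030 to 3590 bp past the start. JunD counts there were 237, 483, 652 and 448, and no Jun or JunB peak was listed. The Tnf promoter was shared, with counts of 68 for Fos and 97 for FosL2.

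Of the 6 chemokine genes with a FosL2-only locus, 4 had a Fos-only promoter before it. These 4 were picked after their values were seen. Ccl4 had FosL2-only loci with counts of 110, 61 and 65 at 1079, 1517 and 2273 bp past its start, and a Fos-only locus with a Fos count of 149 at -131 bp. Ccl3 had FosL2-only loci with counts of 45, 57 and 47 at 952, 2106 and 2502 bp, and a Fos-only locus with a count of 98 at -126 bp. Ccl2 had them with counts of 36, 43 and 66 at 750, 1569 and 2155 bp, and a Fos-only locus with a count of 64 at -103 bp. At Cxcl2 the FosL2-only counts were 33 and 35 at 562 and 916 bp, and Fos-only loci with counts of 118 and 70 lay at -139 and -611 bp. Ccl5 and Cxcl16 had a shared promoter and 1 FosL2-only locus each, and the other chemokine genes had 0 FosL2-only loci.

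This layout was counted over 101 genes of the lists of AP-1, chemokine, cytokine, NFkB, MAP kinase feedback, immediate-early and matrix genes, a set joined after the values were seen. The set includes the genes described above, such as Nfkbia with 7 FosL2-only loci and Tnf with 4. Its counts are therefore not separate from those examples, and several loci come from the same gene. By their centres, loci were placed up to 5 kb before the gene, inside it, or up to 5 kb after it. Of the 67 FosL2-only placements, 3 (4.48%, 1.53 to 12.4) were before the gene, 38 (56.7%) inside and 26 (38.8%, 28 to 50.8) after it. Of the 178 Fos-only placements, 73 (41%, 34 to 48.4) were before, 80 (44.9%) inside and 25 (14%, 9.7 to 19.9) after. Over all 21951 protein-coding genes, 21% (18.8 to 23.4) of FosL2-only and 18% (17.3 to 18.7) of Fos-only placements were before the gene, and 18.2% (16.1 to 20.4) and 10.2% (9.72 to 10.8) after it. At the listed genes, 34 of 67 FosL2-only loci (50.7%, 39.1 to 62.3) had a JunD peak, 45 (67.2%, 55.3 to 77.2) a BALB/cJ JunD peak, 4 (5.97%) a JunB peak and 8 (11.9%, 6.18 to 21.8) a TRE. Of the Fos-only loci there, 82.1% had a JunD peak and 50.3% a JunB peak.

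The listed genes had Fos and FosL2 peaks more often than genes at large. They span AP-1, inflammatory, feedback, lineage, matrix and ribosomal protein genes. A gene was counted where a peak lay within it or up to 5 kb from its ends. Over all 21951 protein-coding genes, expressed or not, 32.0% had a Fos KLA peak, 18.7% a FosL2 KLA peak and 16.5% a shared locus. Of 128 listed genes, 107 (83.6%) had a Fos peak, 84 (65.6%) a FosL2 peak and 77 (60.2%) a shared locus. Fos peaks without a FosL2 peak were at 24 (18.8%), against 14.3% of all genes. A FosL2-only locus was at 38 (29.7%), against 4.55% of all genes. FosL2 peaks without a Fos peak were at 1 (0.781%), against 1.07% of all genes.

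Fos peaks were at every member of the chemokine and of the matrix, adhesion and protease lists. All 13 chemokine genes of the annotation had a Fos peak, 11 a FosL2 peak and 6 a FosL2-only locus. Of 14 NFkB and feedback genes, 13 had a Fos peak, 11 a FosL2 peak and 8 a FosL2-only locus. Of 15 cytokine genes these numbers were 14, 11 and 4, and of 16 immediate-early genes 14, 11 and 4. Of 16 matrix, adhesion and protease genes, which include known AP-1 targets, they were 16, 12 and 6. The MAP kinase and cytokine feedback genes were less full, with 11, 7 and 3 of 15. The macrophage lineage regulators had 11, 10 and 4 of 15. They were lower for Fos, but their number with a FosL2-only locus equalled that of the cytokine genes. Ribosomal protein genes, a housekeeping set, had 5, 3 and 0 of 12.

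The AP-1 genes themselves differed from one another. Of 12, 10 had a Fos peak, 8 a FosL2 peak and 3 a FosL2-only locus. Fos had 1 shared locus at -5078 bp from its start, with counts of 73 for Fos and 75 for FosL2. Fosl2 had a Fos-only locus at its promoter with a Fos count of 85 and another in an intron with a count of 43, and no FosL2 peak. Fosb had a FosL2-only locus past its end with a FosL2 count of 48 and no Fos peak, the only listed gene with that pattern. Atf3 had 5 shared and 4 Fos-only loci with Fos counts up to 134. Junb had 3 shared, 1 Fos-only and 2 FosL2-only loci, Jund had 1 Fos-only locus with a count of 27, and Jun had no locus of any class.

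Cytokine genes with the strongest sharing included Il27, with top counts of 191 for Fos and 105 for FosL2, Il10, with 171 and 84, and Il1b, with 155 and 92. Il1b, the gene of interleukin 1 beta, had its highest Fos count at a Fos-only promoter locus at -165 bp from the start. Its shared locus at -2382 bp had counts of 148 and 92, a PU.1 count of 354 and a CEBPa count of 192. Il6 had 1 shared locus with counts of 40 and 45. Lif, Il12a and Il12b had Fos-only loci with counts of 57, 50 and 33, and Vegfa had no peak of either list.

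Other listed genes had a shared promoter with FosL2-only loci further into the gene or past its end. Il1a, the gene of interleukin 1 alpha, had counts of 120 for Fos and 96 for FosL2 at its start and 4 FosL2-only loci with counts from 36 to 56 at 785 to 12481 bp past it. Tnfaip3, which encodes the NFkB inhibitor A20, had counts of 127 and 86 at its start and 4 FosL2-only loci with counts from 27 to 59 at 2490 to 16339 bp. Zfp36, which encodes a protein that destabilises cytokine mRNAs, had a shared locus at -931 bp with counts of 143 and 91, and 3 Fos-only loci lay before it with counts of 99, 78 and 129. Its 3 FosL2-only loci, with counts of 82, 24 and 27, lay at 3673 to 7273 bp past the start.

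Among the matrix and adhesion genes, the layout was less clear. Cd44, the receptor of hyaluronan, had 8 shared, 6 Fos-only and 5 FosL2-only loci spread over its introns, and its strongest locus was shared with counts of 232 for Fos and 125 for FosL2. Plaur, which encodes the urokinase receptor, had 5 shared loci around its start with Fos counts from 42 to 134 and FosL2 counts from 32 to 88, 2 Fos-only intron loci with counts of 75 and 78, and 1 FosL2-only locus past its end with a count of 31.

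Macrophage markers carried peaks more often than markers of other cells. Of 10 macrophage markers, 9 had a Fos peak, 7 a FosL2 peak and 10 a PU.1 KLA peak, and Marco had neither Fos nor FosL2. Of 6 B cell markers, 1 had a Fos peak and 0 a FosL2 peak. The numbers for Fos and FosL2 were 2 and 0 of 6 for T cell, 4 and 1 of 6 for neutrophil, 2 and 1 of 6 for fibroblast and 1 and 0 of 6 for epithelial markers. PU.1 KLA peaks lay at 3 of 6 B cell, 2 of 6 T cell, 4 of 6 neutrophil, 2 of 6 fibroblast and 4 of 6 epithelial markers. Over all 21951 protein-coding genes, 32.0% had a Fos peak and 18.7% a FosL2 peak within 5 kb. A peak at a gene is not its expression, and the part of other cells in these lists was not tested.

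Most loci of all classes were also marked in other lists. A BALB/cJ Fos peak lay at 96.5% (96.1 to 96.9) of shared, 85.1% (84.6 to 85.7) of Fos-only and 60.3% (57.8 to 62.8) of FosL2-only loci. For 875 of the 1450 FosL2-only loci, therefore, a Fos peak was listed in the other strain. The BALB/cJ Fos list is the longer, with 40459 peaks against 24365 in C57Bl6, so strain and list length cannot be told apart here. An AP-1 peak of any monomer in Veh lay at 79.4%, 56.6% and 51.7% (49.1 to 54.2). A FosL2 Veh peak lay at 26.6% (25.7 to 27.5) of shared, 10.1% (9.65 to 10.6) of Fos-only and 13.3% (11.7 to 15.2) of FosL2-only loci, and a Fos Veh peak at 6.47%, 3.31% and 1.17%.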

How the data were processed

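TGEM chromatin was crosslinked with disuccinimidyl glutarate and formaldehyde, immunoprecipitated and sequenced. The authors used Bowtie2 and the mm10 assembly (for BALB/cJ, a custom genome whose positions were shifted back), called peaks with HOMER against input, and kept peaks at an IDR of 0.05 between replicate experiments. The deposited counts are unnormalized whole numbers per peak, and how the authors combined replicates is not given in the sources used here. The deposited IDR score, a scaled value from 540 to 1000, was used only in an alternative. Coordinates are as deposited, and whether they start at 0 or 1 is not stated. No replicate values enter, so the counts of the lists and the loci per class set the precision.

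Peaks were joined at 1 bp of overlap with Python 3.11.15, pandas 2.3.3 and numpy 2.4.6. Genes came from GENCODE protein-coding TSSs, tRNA genes and sequence from RefSeq GRCm38.p6 read with pysam 0.24.0, and correlations from scipy 1.17.1. Motifs were exact letters on both strands, and their share in all regions of the same length beside the loci was the background. The 10 loci named first in each class were those with the highest count or, for shared loci, the lowest sum of ranks. Members and lists were chosen with earlier results of these data known. The strength split, the tRNA genes, the rRNA place and the counts by side of the gene were chosen after their values were seen. The scripts were tested on simulated lists. Alternatives were other overlap rules, equal lengths, the strongest 50%, a stricter IDR score, distance from TSSs, deciles of rank, leaving out tRNA loci and BALB/cJ partner lists.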

Additional observations from a re-analysis of the deposited data

How the results depend on the processing

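The sizes of the classes depended on the lists used. Fos-only loci numbered 4180 at equal lengths and 7252 in the strongest 50% of each list. FosL2-only loci numbered 4185 and 383 there and 481 with an IDR score of at least 830, and shared loci 4926 in the strongest 50% and 5813 with that score. The share of FosL2 loci that were shared was 83% with centres within 100 bp, 83.9% with a reciprocal overlap of 50%, 60.6% at equal lengths, 92.8% in the strongest 50%, 92.4% with the stricter score and 88.1% at 3 kb or more from a TSS. The share of Fos loci was 36.2%, 36.6%, 60.6%, 40.4%, 33.9% and 38.6% in the same order. Spearman's rho was 0.798 at equal lengths, 0.760 in the strongest 50% and 0.809 with the stricter score, each over fewer loci.

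The difference in promoter share between shared and Fos-only loci was -0.946 pp at equal lengths and no longer called, and turned to 0.988 pp within deciles and 0.447 pp with both. The difference between FosL2-only and Fos-only loci in AP-1 peaks in Veh turned to 1.79 pp within deciles and was not called in the strongest 50% (-0.464 pp) or with the stricter score (-2.22 pp). For PU.1 it was -2.67 pp and for CEBPa -0.365 pp within deciles, and for CEBPa -2.52 pp without loci near another of their class, none of them called. The cause was not tested. The other differences between shares kept their direction and their side of the threshold, those without tRNA genes and with BALB/cJ partner lists included, but several shrank. Between shared and Fos-only loci, Jun fell from 36.1 to 8.22 pp with equal lengths and deciles, and the TRE from 12.8 to 2.73 pp within deciles. With 1 list per condition, no replicate could be left out, and no paired analysis was possible because the lists carry no replicate numbers.

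Depth limits what absence from a list means: the scale of the counts differs between lists, the FosL2 list is the shorter, and sites below the authors' filters are not listed.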

Other observations

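Outside the listed genes, FosL2-only loci also gathered at a few places. Tnfaip2, a gene induced by tumour necrosis factor, had 7 FosL2-only, 5 Fos-only and 4 shared loci within 5 kb. Sdc4, which encodes the proteoglycan syndecan-4, had 6 FosL2-only, 0 Fos-only and 3 shared loci. Actb, the gene of cytoplasmic beta actin, had 5, 0 and 1. Near Aurkb, which encodes a mitotic kinase, 6 FosL2-only loci of the stronger 50% of the list lay between chr11:69036904 and chr11:69041925 with FosL2 counts from 51 to 80, and a JunD peak, a BALB/cJ Fos peak and a TRE were each found at 0 of them. Near Klrb1c, 4 such loci with counts from 52 to 85 had a JunD peak at 4 and a BALB/cJ Fos peak at 2. These places were chosen after their values were seen.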
